A study of Macaca mulatta with 16 samples.

Results

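Erythroid cell genes were examined in the lungs of fetal rhesus macaques by RNA sequencing of whole tissue. The set held 8 genes, ALAS2, AHSP, SLC4A1, EPB42, RHAG, KLF1, GATA1 and HEMGN, taken as markers of red cells and their nucleated precursors. They were found by matching the rhesus Ensembl identifiers of the count table to gene symbols. All 8 had a row among the 22515 genes of the table, and all 8 passed the filter on low counts that left 19199 genes for testing.

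The study asked how prenatal inflammation, with or without an antenatal corticosteroid, changes the preterm lung. The 16 animals, each with 1 library, fell into 5 groups. Preterm controls (n = 4, animals 092, 101, 113 and 209) were delivered at 131 to 135 days of gestation. LPS 16h animals (n = 4, 026, 029, 035 and 038) received 1 mg of intraamniotic LPS, a bacterial endotoxin, and were delivered 16 hours later at 130 to 131 days. LPS 5d animals (n = 3, 239, 240 and 242) received the same dose and were delivered 5 days later at 131 to 134 days. LPS + Beta-Ac 5d animals (n = 3, 248, 249 and 255) received in addition betamethasone-acetate (Beta-Ac), a slowly released corticosteroid, at 0.125 mg/kg intramuscularly to the dam, and were delivered after 5 days at 131 to 132 days. Term controls (n = 2, 200 and 201) were delivered at 156 and 157 days. The controls had no intervention, so a vehicle injection was not part of any comparison, and a single LPS injection is a short stimulus beside an ongoing infection.

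Red cells arise from progenitors in the fetal liver and marrow, where GATA1 and KLF1 switch on the genes for haem synthesis, globin and the red cell membrane. A cell that loses its nucleus keeps its RNA for a while as a reticulocyte, and fetal blood is rich in such young cells and in nucleated precursors. Lung tissue is full of blood, so its RNA includes theirs. In bulk tissue, fewer cells of a type and less RNA per cell cannot be told apart.

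Library totals ran from 30596371 to 48052891 counts in the LPS 16h animals and from 20169363 to 28348816 counts in the other 12. Levels are given as CPM, the usual unit of a gene's counts scaled to a common library size, after TMM scaling, which corrects the totals for genes that dominate a library. CPM is not divided by gene length, so levels were compared between animals and not between genes. Summed markers of lung tissue (SFTPC, SFTPB, NKX2-1, AGER, PECAM1 and COL1A1) were high in every group, at 9379 to 20507 CPM. A gene was called changed at an adjusted p below 0.05 with at least a 2-fold change (limma, Benjamini-Hochberg over all 19199 genes). The 6 comparisons share animals, 4 of them the preterm controls.

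ALAS2, the first enzyme of haem synthesis in red cell precursors, was at 31.9, 45.6, 17.6 and 32.0 CPM in preterm controls 092, 101, 113 and 209, and at 62.9, 28.1, 27.8 and 21.7 CPM in LPS 16h animals 026, 029, 035 and 038. It was at 9.87, 32.7 and 19.5 CPM in LPS 5d animals 239, 240 and 242, at 42.8, 50.4 and 39.9 CPM in LPS + Beta-Ac 5d animals 248, 249 and 255, and at 12.6 and 10.4 CPM in term controls 200 and 201. The term animals lay below every preterm control, and the LPS + Beta-Ac 5d animals above every LPS 5d animal. Animal 026 stood apart from the other 3 LPS 16h animals, which lay within the range of the preterm controls.

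AHSP, a chaperone that holds free alpha globin, was at 2.13, 6.61, 2.06 and 2.87 CPM in the preterm controls (092, 101, 113, 209) and at 5.79, 5.90, 5.71 and 3.32 CPM in the LPS 16h animals (026, 029, 035, 038). It was at 1.96, 3.15 and 1.23 CPM in the LPS 5d animals (239, 240, 242), at 3.39, 3.51 and 3.20 CPM in the LPS + Beta-Ac 5d animals (248, 249, 255), and at 1.73 and 4.14 CPM in the term controls (200, 201). All LPS 16h animals exceeded all LPS 5d animals. Preterm control 101 had the highest level of all 16.

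SLC4A1, the band 3 anion exchanger of the red cell membrane, varied most. It was at 3.35, 21.5, 1.53 and 6.77 CPM in the preterm controls and at 33.3, 9.47, 19.0 and 12.4 CPM in the LPS 16h animals, in the same order of animals. It was at 1.05, 3.76 and 2.09 CPM in the LPS 5d animals, at 8.43, 7.17 and 11.4 CPM in the LPS + Beta-Ac 5d animals, and at 0.772 and 7.95 CPM in the term controls. The highest and lowest of the 16 animals, 026 and 200, differed 43.1-fold. The LPS 5d animals lay below every LPS 16h and every LPS + Beta-Ac 5d animal, but within the range of the preterm controls apart from animal 239, which was lower.

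EPB42 encodes protein 4.2, which ties band 3 to the membrane skeleton. It was at 1.18, 3.60, 0.568 and 0.837 CPM in the preterm controls, at 6.75, 2.69, 3.68 and 1.72 CPM in the LPS 16h animals, and at 0.218, 1.34 and 0.522 CPM in the LPS 5d animals. It was at 1.58, 1.48 and 1.43 CPM in the LPS + Beta-Ac 5d animals and at 0.257 and 1.20 CPM in the term controls. The LPS 16h and LPS 5d animals did not overlap. RHAG, the Rh-associated glycoprotein, had the smallest spread between group means, from 0.865 ± 0.256 CPM (SD, n = 3) with LPS + Beta-Ac 5d to 1.61 ± 0.419 CPM (SD, n = 4) at LPS 16h. Its highest level, 3.60 CPM, was in preterm control 101 and its lowest, 0.479 CPM, in preterm control 092, so the preterm controls alone spanned the range of all animals.

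KLF1, an activator of globin and red cell membrane genes, averaged 1.03 ± 0.825 CPM (SD, n = 4) in the preterm controls, 2.12 ± 0.845 (SD, n = 4) at LPS 16h, 0.882 ± 0.716 (SD, n = 3) at LPS 5d, 1.81 ± 0.694 (SD, n = 3) with LPS + Beta-Ac 5d and 0.726 ± 0.299 (SD, n = 2) at term. With the groups sorted by mean, each group's range overlapped that of the next. HEMGN, a nuclear protein of erythroid precursors, was at 2.13, 4.90, 2.02 and 2.26 CPM in the preterm controls and at 6.79, 2.99, 4.27 and 3.40 CPM in the LPS 16h animals. It was at 0.798, 2.19 and 1.85 CPM in the LPS 5d animals, at 3.39, 2.32 and 4.70 CPM in the LPS + Beta-Ac 5d animals, and at 1.54 and 4.27 CPM at term. Every LPS 5d animal was below every LPS 16h and every LPS + Beta-Ac 5d animal.

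GATA1, the transcription factor that drives red cell development and also acts in megakaryocytes, mast cells and eosinophils, was the least counted member, with 2 to 57 counts per library. It was at 0.0871, 1.20, 0.426 and 0.145 CPM in the preterm controls (092, 101, 113, 209) and at 1.42, 1.01, 1.33 and 0.843 CPM in the LPS 16h animals. It was at 0.689, 1.07 and 0.712 CPM in the LPS 5d animals, at 1.24, 1.19 and 1.46 CPM in the LPS + Beta-Ac 5d animals, and at 0.331 and 0.614 CPM at term. The low mean of the preterm controls came from 3 of the 4 animals, while animal 101 was within the range of the LPS 16h animals. The 2 counts of animal 092 have an exact 95% Poisson interval of 0.242 to 7.23 counts and the 4 counts of animal 209 one of 1.09 to 10.2 counts, which cover counting error only.

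**Figure D1:**
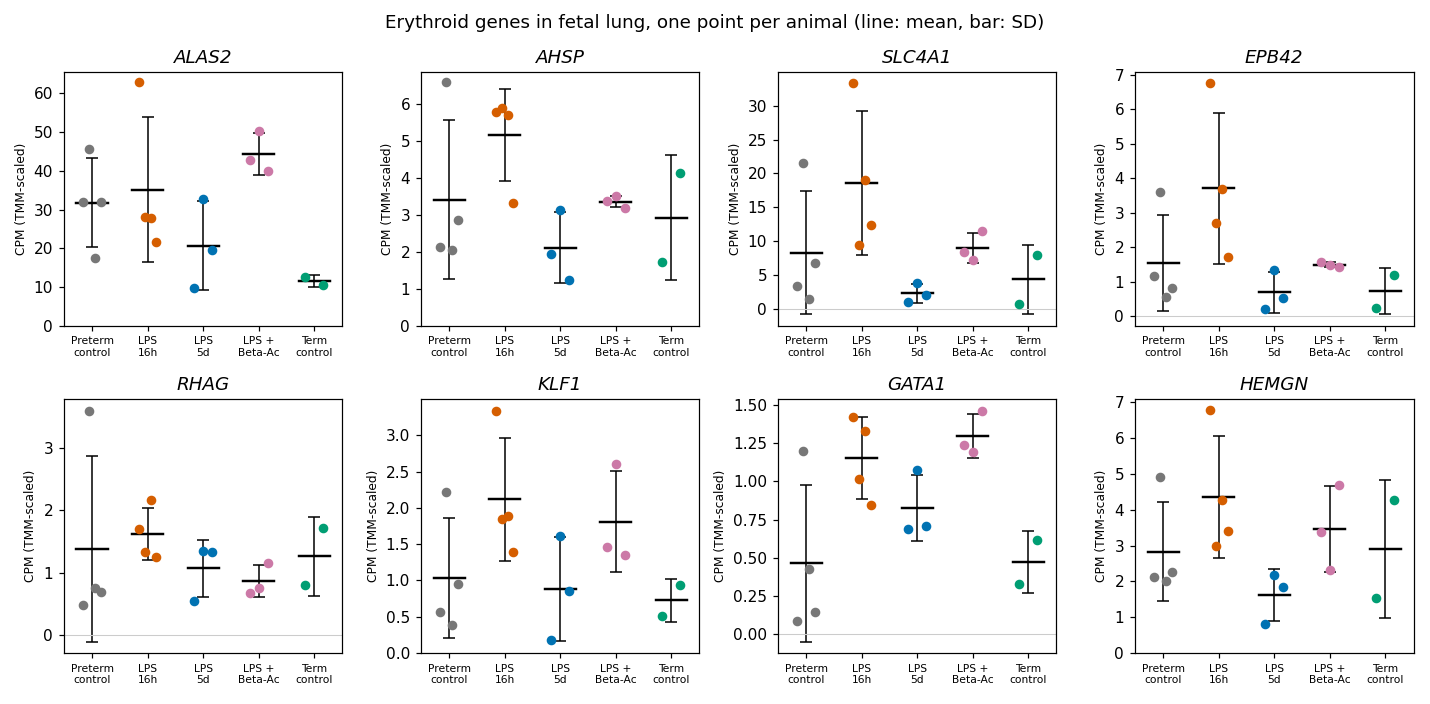
Level of each erythroid gene in CPM after TMM scaling (vertical axis, linear) in the 5 groups (horizontal axis), with 1 point per animal, a line at the group mean and a bar of 1 SD on each side. LPS 16h points lie above all LPS 5d points for AHSP, SLC4A1, EPB42 and HEMGN, where 40% of all genes separated these groups in either direction. In every panel except ALAS2, 1 preterm control, animal 101, lies far above the other 3.

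Ordered by group mean, 30 of the 32 neighbouring pairs of groups overlapped in their animals. Sorting by mean sets groups of like level side by side, which makes overlap likely. The share of such pairs over all genes was not taken, so this count only describes the members. The exceptions were EPB42, higher in every LPS + Beta-Ac 5d animal than in either term control, and GATA1, higher in every LPS 5d animal than in either term control. LPS 16h had the highest mean for 6 members, and LPS + Beta-Ac 5d the highest for ALAS2 and GATA1. The lowest mean was at LPS 5d for AHSP, SLC4A1, EPB42 and HEMGN, at term for ALAS2 and KLF1, with LPS + Beta-Ac 5d for RHAG and in the preterm controls for GATA1.

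Against the preterm controls, all 8 members had a higher mean log2 level at LPS 16h, with a median log2 fold change of 0.96 beside -0.09 over all genes tested. Only GATA1 passed the test, as 1 of 8 members beside 14.4% of all genes called in either direction. GATA1 was higher by 1.65 on the log2 scale (SE 0.50, adjusted p = 0.0162). SLC4A1 was 1.64 higher (SE 0.79, adjusted p = 0.120), EPB42 1.39 higher (SE 0.61, adjusted p = 0.0843) and KLF1 1.19 higher (SE 0.56, adjusted p = 0.107), and none of these passed. For ALAS2 the difference was 0.10 with a 95% interval of -0.71 to 0.90. None of the 8 members separated the groups fully, while 33.6% of all genes did.

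The result against preterm controls turned on single animals. Without preterm control 101 the count rose from 1 to 6 members, as AHSP (adjusted p = 0.0219), SLC4A1 (0.0250), EPB42 (0.0202), RHAG (0.0167) and KLF1 (0.0318) joined GATA1 (0.00045). The share of all genes called without that animal was not taken. Without preterm control 092 or 209 the call of GATA1 was lost, at adjusted p = 0.0547 and 0.0514. Neutrophil markers, summed over 7 genes, were at 1356 to 2109 CPM at LPS 16h and at 21.4 to 53.5 CPM in the preterm controls, and 5 of the 7 were called higher, S100A9, S100A8, S100A12 (at 0 in 2 of the 16 animals), CSF3R and FCGR3. The part of neutrophils in the members' levels was not tested. The LPS 16h libraries were also the deepest, and with every library thinned to the smallest total GATA1 was higher by 1.51 (adjusted p = 0.0227).

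At LPS 5d, 6 members were lower and 2 higher than in the preterm controls, with a median log2 fold change of -0.65 beside -0.00 over all genes. No member was called by limma or limma-voom, beside 4.83% of all genes, and GATA1 had an unadjusted p below 0.05, as did 28% of all genes. The intervals stayed wide. SLC4A1 differed by -1.34 with a 95% interval of -3.18 to 0.50, and RHAG by 0.01 with an interval of -1.13 to 1.16. GATA1 was 1.20 higher (SE 0.54, adjusted p = 0.155), and without preterm control 101 it was called, at 1.78 (adjusted p = 0.0122). In none of the 8 members did the groups separate fully, as they did in 29.2% of all genes. All 5 cell cycle markers (MKI67, TOP2A, CCNB1, CDK1 and AURKB) were called lower at LPS 5d, and S100A9, FCGR3 and CSF3R of the neutrophil markers and CCR3, the eotaxin receptor of eosinophils, were called higher. Their part in the members' levels was not tested.

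With LPS + Beta-Ac 5d, 7 members were higher than in the preterm controls, with a median log2 fold change of 0.44 beside -0.01 over all genes. GATA1 was called, as 1 of 8 members beside 6.5% of all genes. It was higher by 1.84 on the log2 scale (SE 0.54, adjusted p = 0.0271). The call was lost when preterm control 092 or 209, or any of the 3 treated animals, was left out (adjusted p = 0.0664 to 0.0809), and when the compared groups alone were fitted (0.0876). KLF1 was 0.99 higher (SE 0.61, adjusted p = 0.30) and ALAS2 0.55 higher (SE 0.41, adjusted p = 0.399). Again 0 of the 8 members separated the groups fully, beside 30.8% of all genes. Neutrophil markers summed to 182 to 363 CPM with LPS + Beta-Ac 5d, with 6 of the 7 called higher (S100A9, S100A8, S100A12, CSF3R, FCGR3 and MPO), and 2 of the 5 cell cycle markers, TOP2A and CDK1, were called lower. The part of either in the members' levels was not tested.

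Markers of other cells that express GATA1 were measured beside it. Megakaryocyte and platelet markers summed to 14.1 to 23.2 CPM in the preterm controls, 16.1 to 19.5 at LPS 16h and 17.4 to 23.9 with LPS + Beta-Ac 5d, and 0 of the 6 tested were called in either comparison. Of these markers GP6 was at 0 in 4 animals, and GP9 and GP1BA in 1 each. Mast cell markers summed to 102 to 141 CPM in the preterm controls, 63.6 to 123 at LPS 16h and 89.4 to 123 with LPS + Beta-Ac 5d. KIT made up most of each sum, at 92.7 to 127, 56.3 to 81.7 and 66.9 to 69.5 CPM in these groups. Of the 5 mast cell markers, 2 were higher and 3 lower at LPS 16h than in the preterm controls. With LPS + Beta-Ac 5d 3 were higher and 2 lower. HDC, the enzyme that makes histamine, was called higher at LPS 16h (1.76, adjusted p = 0.0481). HDC (2.77, adjusted p = 0.0149) and MS4A2, a chain of the IgE receptor (1.30, adjusted p = 0.0333), were called higher with LPS + Beta-Ac 5d. Eosinophil markers summed to 4.90 to 10.3 CPM in the preterm controls, 4.16 to 5.66 at LPS 16h and 5.46 to 8.36 with LPS + Beta-Ac 5d, where CCR3 was called higher (1.43, adjusted p = 0.00689). Of the 3 eosinophil markers, 1 was higher and 2 lower at LPS 16h than in the preterm controls. With LPS + Beta-Ac 5d 2 of them were higher and 1 lower. The part of these cells in the level of GATA1 was not tested.

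At term, 6 members were lower and 2 higher than in the preterm controls, with a median log2 fold change of -0.21. No member was called by limma or limma-voom, beside 2.07% of all genes, and 1 member, ALAS2, had an unadjusted p below 0.05, as did 18.9% of all genes. ALAS2 differed by -1.38 (SE 0.46, adjusted p = 0.113), and it alone of the 8 did not overlap between the groups, as 26.4% of all genes did not. Between the 2 term animals the members differed from 1.22-fold to 10.3-fold. SLC4A1 was 10.3-fold and EPB42 4.65-fold higher in animal 201 than in animal 200, while ALAS2 was 1.22-fold lower. At term S100A9, FCGR3 and CSF3R of the neutrophil markers and MS4A2 of the mast cell markers were called higher. TOP2A, CCNB1, CDK1 and MKI67 of the cell cycle markers were called lower. Of the 5 mast cell markers, 4 were higher and 1, KIT, was lower. The part of these markers in the members' levels was not tested.

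LPS + Beta-Ac 5d against LPS 5d compares animals that differ in the corticosteroid. Here 7 members were higher and RHAG lower, with a median log2 fold change of 1.19 beside -0.00 over all genes. No member was called by limma or limma-voom, beside 0.104% of all genes. ALAS2 (1.25, SE 0.44), HEMGN (1.13, SE 0.47) and SLC4A1 (2.08, SE 0.91) had an unadjusted p below 0.05, with adjusted p = 0.641, 0.895 and 0.991, where 4.82% of all genes had such a p. In 6 of the 8 members, ALAS2, AHSP, SLC4A1, EPB42, GATA1 and HEMGN, every LPS + Beta-Ac 5d animal was above every LPS 5d animal, and 11.4% of all genes separated these groups in either direction. The 95% interval for SLC4A1 ran from 0.12 to 4.05 and that for ALAS2 from 0.32 to 2.19. Markers of some other cells were higher in the same animals, with 6 of the 7 neutrophil markers higher and 1 lower. Summed neutrophil markers were at 182 to 363 CPM with LPS + Beta-Ac 5d and at 72.7 to 124 CPM at LPS 5d, with 5 of the 7 not overlapping and 6 at an unadjusted p below 0.05. All 6 megakaryocyte and platelet markers tested were higher, 3 without overlap, and all 5 cell cycle markers were higher, 3 without overlap. Other lists were mixed. Mast cell markers were higher in 4 and lower in 1, and eosinophil markers higher in 2 and lower in 1. Hepatocyte markers were higher in 2 and lower in 3, and lung tissue markers higher in 4 and lower in 2. None of these markers was called, and their part in the members' levels was not tested.

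**Figure D2:**
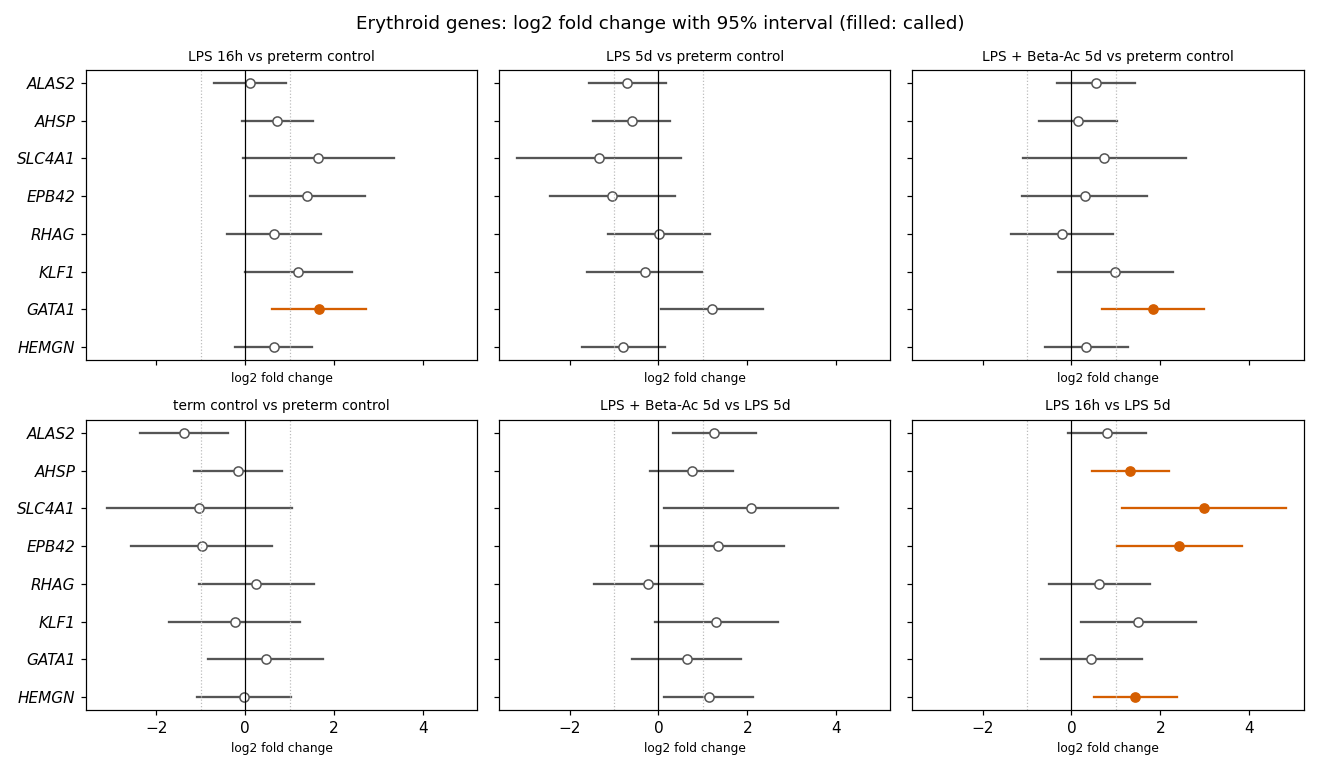
Log2 fold change (horizontal axis) of each erythroid gene (vertical axis) in the 6 comparisons, with bars for the 95% interval, filled orange points for called genes and dotted lines at a 2-fold change. Called are GATA1 at LPS 16h and with LPS + Beta-Ac 5d against preterm controls, and AHSP, SLC4A1, EPB42 and HEMGN at LPS 16h against LPS 5d.

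The clearest difference was between the LPS groups. All 8 members were higher at 16 hours than at 5 days after LPS, with a median log2 fold change of 1.38 beside -0.04 over all genes. The test called 4 of the 8, all higher, beside 8.02% of all genes called higher and 14.6% in either direction. SLC4A1 was higher by 2.98 on the log2 scale (SE 0.85, adjusted p = 0.0149) and EPB42 by 2.43 (SE 0.66, adjusted p = 0.00963). HEMGN was higher by 1.44 (SE 0.44, adjusted p = 0.0186) and AHSP by 1.32 (SE 0.41, adjusted p = 0.0201). For these 4 genes each of the 4 LPS 16h animals lay above each of the 3 LPS 5d animals, and 40% of all genes separated these groups in either direction. KLF1 was 1.51 higher (SE 0.61, adjusted p = 0.0664), ALAS2 0.80 higher (SE 0.41, adjusted p = 0.148), RHAG 0.63 higher (SE 0.54, adjusted p = 0.397) and GATA1 0.45 higher (SE 0.54, adjusted p = 0.557), and none of these passed.

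The calls depended on single animals. Without LPS 5d animal 239 all 4 were lost, with SLC4A1 at 2.53 (adjusted p = 0.0712), EPB42 at 1.87 (0.0603), HEMGN at 1.02 (0.112) and AHSP at 1.32 (0.0542). Animal 239 was the lowest LPS 5d animal in SLC4A1, EPB42 and HEMGN. In AHSP the lowest was 242, and the fold change was nearly the same without 239. Without 242 AHSP fell to 1.00 and was not called (adjusted p = 0.107), and without LPS 16h animal 026 HEMGN was at 1.20 and was not called (0.0548). Without LPS 5d animal 240 the count rose to 6, as ALAS2 (adjusted p = 0.0438) and KLF1 (0.0205) joined. The share of all genes called in the fits without an animal was not taken. Summed neutrophil markers were at 72.7 to 124 CPM at LPS 5d, and summed cell cycle markers were at 40.0 to 47.4 CPM there and at 73.2 to 125 CPM at LPS 16h. Called higher at LPS 16h were S100A8, S100A9, S100A12, CSF3R and FCGR3 of the neutrophil markers and TOP2A, MKI67 and CCNB1 of the cell cycle markers. The other 2 of the 7 neutrophil markers, CXCR2 and MPO, were lower and not called. Called lower were EPX, the eosinophil peroxidase, and MS4A2. The part of any of these in the members' levels was not tested.

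Animals of the same group varied widely in these genes. The 5 groups took up from 18.7% (RHAG) to 59.7% (ALAS2) of the variance of log2 CPM over the 16 animals. The SD within groups was 0.592 to 1.23 on the log2 scale for the 8 members, against a median of 0.281 over all genes. The SD of SLC4A1, 1.23, was at the 97.3 percentile of all genes, and at the 97.9 percentile of the 1704 genes of like level. AHSP had the smallest SD, at the 84.3 percentile of all genes. Among genes of like level, GATA1 ranked lowest of the members, at the 76.4 percentile. The others were at 81.6 (AHSP), 83.8 (HEMGN), 84.3 (RHAG), 88.9 (KLF1), 91.9 (EPB42) and 97.0 (ALAS2).

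The same animals were high in many members. By the mean log2 CPM over the 8 genes, the highest animals were 026 (LPS 16h, 2.79), 101 (preterm control, 2.54), 035 (LPS 16h, 2.28) and 029 (LPS 16h, 1.91). The lowest were 239 (LPS 5d, -0.07), 200 (term, 0.13), 113 (preterm control, 0.49) and 092 (preterm control, 0.65). Animal 026 was among the top 4 in all 8 members and animal 101 in 7, whereas animals 239, 200 and 113 were among the bottom 4 in 7 each. The LPS + Beta-Ac 5d animals were close together, at 1.68 to 1.85, and the preterm controls spread from 0.49 to 2.54.

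**Figure D3:**
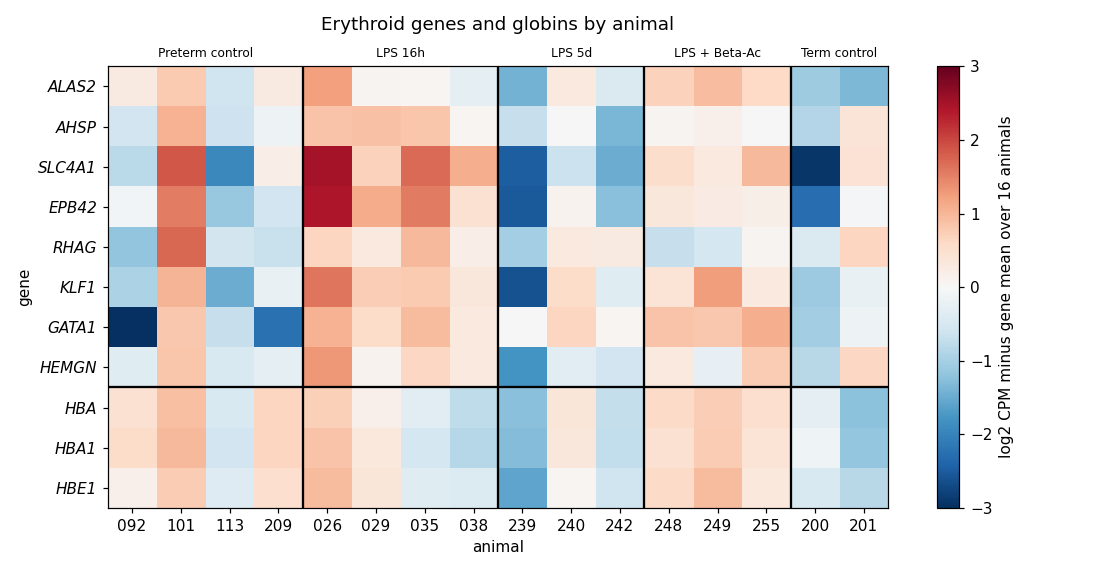
Log2 CPM minus the gene's mean over the 16 animals (colour, red higher, blue lower) for the 8 erythroid genes and, below the line, 3 globin rows (vertical axis) in each animal (horizontal axis, by group). Animals 101 and 026 are red in all rows and 239 is blue in all but GATA1, RHAG included, while LPS 16h animals 035 and 038 are red for SLC4A1 and EPB42 and blue for the globins.

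Over the 16 animals, the 28 pairs of members had Pearson's r of 0.22 to 0.94 (median 0.67) and Spearman's rho of 0.15 to 0.95 (median 0.71) on log2 CPM. Of these, 25 by r and 26 by rho had a Benjamini-Hochberg adjusted p below 0.05 in a two-sided permutation test with 100000 resamples, whose smallest possible p is 1e-05. The permutations moved animals freely across the 5 groups. These p-values therefore do not separate shifts shared by a group from variation between animals of a group. The share of pairs with such a p among all genes was not taken, so the counts only describe the members. The highest r was that of SLC4A1 with EPB42 (0.94), band 3 and its binding partner, and the lowest that of ALAS2 with RHAG (0.22). Without the 2 animals farthest from the median of one gene, r ran from 0.23 to 0.90. With the group means removed it ran from 0.28 to 0.89, for which no p was taken. GATA1 and RHAG had r = 0.58 over all animals and 0.87 with the group means removed. The values of a pair come from the same library and share its depth and scaling.

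**Figure D4:**
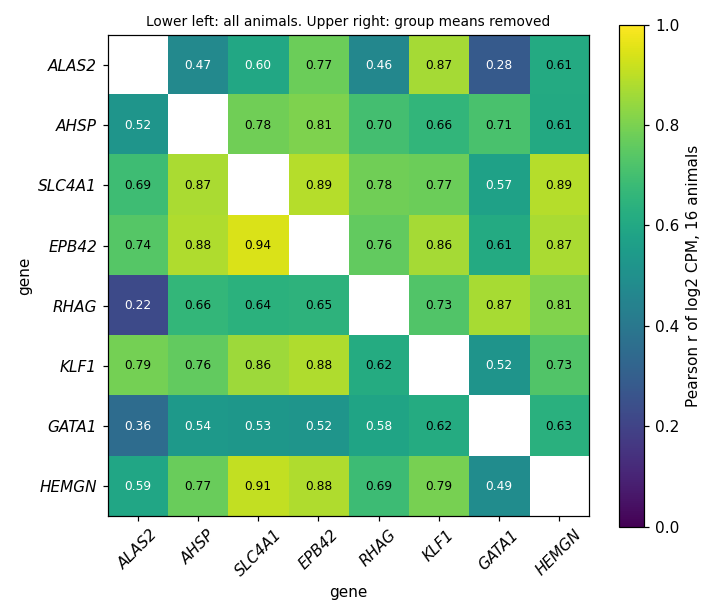
Pearson's r of log2 CPM between each pair of erythroid genes (both axes) over 16 animals, below the diagonal for all animals and above it after group means were removed. Pairs among SLC4A1, EPB42, HEMGN and AHSP are at 0.77 or above below the diagonal, and the lowest value is that of ALAS2 with RHAG, 0.22.

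The genes most like the members, by r with their mean log2 CPM over 16 animals, included several from a wider list of red cell genes. Among the 10 highest were TFR2, the second transferrin receptor (0.96), HBM, mu globin (0.91), TRIM10 (0.89), NFE2, a transcription factor of erythroid and myeloid cells (0.86), RASGRP4 (0.86), LRRC63 (0.82), SPTB, beta spectrin (0.81), and TMEM154 (0.79). Among the 10 genes with the highest r of all tested, members included, 5 were members and 5 were from the wider erythroid list, and all 8 members were among the top 50. The mean contains the members, so their own place is fixed in part.

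Globins make up most of the RNA of a young red cell, and 5 globin rows were present, HBA, HBA1, HBE1, HBM and HBQ1. HBA2, HBB, HBD, HBG1, HBG2 and HBZ had no row under those symbols, so the beta, delta and gamma chains were not measured by name. Near-identical globin copies can share reads, so the split between such rows is uncertain. Whether the HBE1 row holds reads of globin genes without a row was not tested. Across animals HBA ran from 336 to 1487 CPM, HBA1 from 117 to 567 CPM and HBE1 from 423 to 2450.05 CPM, with the lowest level of each in LPS 5d animal 239. None of the 5 was called in the 4 comparisons with preterm controls or in LPS + Beta-Ac 5d against LPS 5d. HBM alone was called at LPS 16h against LPS 5d, 2.07 higher (SE 0.71, adjusted p = 0.0338). HBA, HBA1 and HBE1 were all 1.10 to 1.32 higher with LPS + Beta-Ac 5d than with LPS 5d, and every animal was on its group's side, as in 11.4% of all genes in either direction, at adjusted p = 0.491 to 1.

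The fitted differences of SLC4A1 and of the globin rows with the most counts had opposite signs in 1 comparison. At LPS 16h against preterm controls SLC4A1 was 1.64 higher, while HBA differed by -0.44 (SE 0.39, adjusted p = 0.398), HBA1 by -0.45 (SE 0.44, adjusted p = 0.449) and HBE1 by -0.12 (SE 0.37, adjusted p = 0.822). HBM was 1.14 higher (SE 0.65, adjusted p = 0.189), and of the other membrane members EPB42 was 1.39 and RHAG 0.64 higher. None of these passed the test. Within an animal, log2 SLC4A1 minus log2 HBA was -5.30, -6.55, -5.06 and -5.25 in LPS 16h animals 026, 029, 035 and 038, and -8.32, -8.10 and -7.87 in LPS 5d animals 239, 240 and 242. It was -8.35, -6.11, -8.58 and -7.54 in preterm controls 092, 101, 113 and 209, -7.14, -7.54 and -6.64 in the LPS + Beta-Ac 5d animals and -9.72 and -5.43 at term. The LPS 16h animals were above all LPS 5d and LPS + Beta-Ac 5d animals, 3 of the 4 preterm controls and term animal 200. Term animal 201 and preterm control 101 lay above LPS 16h animal 029. The difference of SLC4A1 and HBA within an animal was chosen after its values were seen and was not tested.

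**Figure D5:**
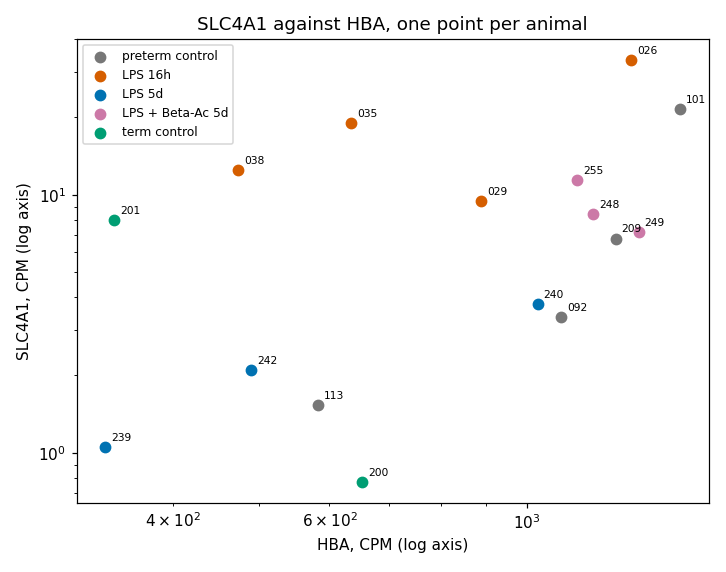
SLC4A1 (vertical axis) against HBA (horizontal axis), both in CPM on log axes, with 1 point per animal labelled by its number and coloured by group. The 4 LPS 16h points lie at 9.47 CPM of SLC4A1 or above over a range of HBA, and the 3 LPS 5d points at 3.76 CPM or below. Preterm control 101 and LPS + Beta-Ac 5d animal 255 also lie above 9.47 CPM. Preterm controls 092 and 113 and term control 200 also lie below 3.76 CPM.

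This wider list of 88 red cell genes was written from general knowledge, of which 75 had a row and all 75 were tested. At LPS 16h against preterm controls, 14 were called higher and 7 lower, with a median log2 fold change of 0.01, beside 8.3% of all genes called higher and 6.07% called lower. The largest rises were in ACKR1, the Duffy antigen (6.10), SLC11A2, an iron transporter (2.98), TFRC, the transferrin receptor (2.37), and NFE2 (2.10), and the largest falls in OSBP2 (-1.45), EPOR, the erythropoietin receptor (-1.25), BCAM (-1.18) and SELENBP1 (-1.15). These are not specific to red cells. ACKR1 is also a chemokine-binding receptor of venular endothelium, TFRC is found on most dividing cells and BCAM is a laminin receptor of epithelium. By role, 5 of the 8 erythropoietin and iron genes were called higher and 1 lower, against 2 higher and 3 lower of 18 membrane and skeleton genes and 0 of 5 globins.

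At LPS 5d against preterm controls, 2 of the 75 were called higher, ACKR1 (1.66) and ICAM4 (1.21), and 2 lower, among them CA2, a carbonic anhydrase (-1.25), beside 2.6% and 2.23% of all genes. With LPS + Beta-Ac 5d the calls were 4 higher and 0 lower, ACKR1 (1.67), TSPAN33 (1.45), STEAP3 (1.21) and IKZF1 (1.16), beside 4.05% and 2.44% of all genes. At term ACKR1 was higher (2.40) and E2F2 lower (-1.23), beside 1.11% and 0.953% of all genes. In LPS + Beta-Ac 5d against LPS 5d, 0 of the 75 were called by limma or limma-voom, beside 0.104% of all genes. An unadjusted p below 0.05 was found in 11 of them and in 4.82% of all genes. At LPS 16h against LPS 5d, 12 were called higher and 5 lower, beside 8.02% and 6.61% of all genes. The largest rises were in ACKR1 (4.44), TFR2 (2.68), NFE2 (2.53) and SLC11A2 (2.45). The largest falls were in ICAM4 (-2.33), SELENBP1 (-2.14), EPOR (-1.81) and BCAM (-1.63).

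The fetal liver makes red cells, so liver markers were measured as well. ALB was at 14.8 CPM in preterm control 113, one of the animals lowest in the members, and at 0 to 7.29 CPM in the other 15. The hepatocyte sum was 39.3 to 160 CPM in the preterm controls and 259 to 556 CPM at LPS 16h, and most of it was SERPINA1, which neutrophils also express. SERPINA1 (2.49, adjusted p = 0.0026) and APOB (2.73, adjusted p = 0.0041) were called higher at LPS 16h than in the preterm controls. The other markers, ALB (0.59), AFP (-0.83) and APOA1 (-0.34), were not called there. At LPS 16h against LPS 5d APOB was called higher (2.70) and APOA1 lower (-1.66). APOB was at 0 in 7 animals and at most 1.14 CPM.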

How the data were processed

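RNA of snap-frozen lung was poly(A) selected and sequenced as 75 bp read pairs. Per the labels and methods, the authors quantified transcripts with kallisto against Mmul_10 and summed them to gene counts. Software versions and annotation release: not given in the sources used here. Values in the deposited table are whole-number counts. They were analysed as log2 values rather than with a count model, because bare animal numbers as column names kept the table from being read as counts by the unit check used here. Identifiers were matched to symbols (17256 of 22515). Counts were TMM scaled, and 2 was added as a prior count before log2 CPM was taken, so fold changes of low genes are understated. Genes needed 0.371 CPM in 2 animals and 15 counts in total. limma 3.58.1 (R 4.3.3, trend and robust) was fitted to all 16 animals with 1 mean per group, two-sided. The labels give no sex or batch. All members were named, with every globin row, up to 4 called genes per direction of the wider list, the 10 most alike genes, and called markers of other cells, except that some genes of the wider list are not reported here. Members and lists were chosen with earlier results of these data known. TMM factors were 0.857 to 0.92 in the LPS 16h libraries and 0.995 to 1.12 in the other 12. Replicate libraries differed beyond sampling noise. The procedure was tested on simulated data.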

Additional observations from a re-analysis of the deposited data

Results flagged for a closer look

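In 2 groups of 4 animals a single animal lay far from the others in 1 member, judged by its gap to the nearest animal over the range of the group, a rule that chance meets in about 1 of 20 groups. With 8 members in each group, such hits can arise by chance. AHSP in LPS 16h animal 038 was at 1.76 log2 CPM, with the nearest animal at 2.53. HEMGN in preterm control 101 was at 2.31 log2 CPM, with the nearest animal at 1.22. The effect of LPS against the same preterm controls differed between 16 hours and 5 days for 4 members, tested as the difference of LPS 16h and LPS 5d in the fit over all animals. It differed by 2.98 for SLC4A1, 2.43 for EPB42, 1.44 for HEMGN and 1.32 for AHSP on the log2 scale. Each was higher in every LPS 16h animal than in every LPS 5d animal, and 40% of all genes separated these groups in either direction. None of the 4 passed without LPS 5d animal 239, and AHSP did not pass without 242 nor HEMGN without LPS 16h animal 026.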

How the results depend on the processing

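No paired analysis was possible because no animal number is shared between groups. Outside the fits that left out an animal, 377 of 384 log2 fold changes of single members kept their direction and their side of the threshold over 8 alternatives (median-of-ratios scaling, library totals alone, TMM without haemoglobin genes, a prior count of 0.5, no filter, limma-voom, the compared groups alone, and libraries thinned to the smallest total, the last chosen after the data were seen). limma-voom called 2 members at LPS 16h against preterm controls, with EPB42 at 1.49 (adjusted p = 0.0440), and the compared groups alone called 0 with LPS + Beta-Ac 5d, with GATA1 at 1.80. Library totals moved the median of all genes to -0.29 at LPS 16h against preterm controls and to -0.22 against LPS 5d, and turned ALAS2 at LPS 16h to -0.11, RHAG at LPS 5d to -0.0014 and HEMGN at term to 0.037. HEMGN at term was 0.016 by limma-voom and 0.0022 when thinned. The cause was not tested. The members called ranged, with 1 animal left out, from 0 to 6 at LPS 16h against preterm controls, 0 to 1 at LPS 5d, 0 to 1 with LPS + Beta-Ac 5d, 0 to 0 at term, 0 to 0 for LPS + Beta-Ac 5d against LPS 5d, and 0 to 6 for LPS 16h against LPS 5d. The share of all genes called in the fits without an animal was not taken, so these counts only describe the members. With 1 animal left out, log2 fold changes that turned ran from -0.23 to 0.30 for ALAS2 at LPS 16h. At LPS 5d RHAG ran from -0.30 to 0.61 and KLF1 from -0.91 to 0.46. With LPS + Beta-Ac 5d AHSP ran from -0.033 to 0.52, EPB42 from -0.038 to 0.81 and RHAG from -0.53 to 0.39. At term AHSP ran from -0.79 to 0.44, SLC4A1 from -2.66 to 0.59, RHAG from -0.27 to 0.84, KLF1 from -0.64 to 0.20 and HEMGN from -0.74 to 0.68. Where an arm fell to 1 animal, it was taken to vary like the other groups. Without a minimum fold change, the wider list had 32, 10 and 12 calls at LPS 16h, LPS 5d and LPS + Beta-Ac 5d against preterm controls and 29 at LPS 16h against LPS 5d, beside 21, 4, 4 and 17 (38.3%, 14.7%, 17.3% and 35% of all genes without it). At term it had 1 call by limma-voom and when thinned, and 0 with the compared groups alone, beside 2. Counts of 2 to 57 a library limit what GATA1 can show.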
